A study of Homo sapiens with 3 samples.

Results

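Edit clusters were examined in 8 genes that encode giant ubiquitin ligases, namely HUWE1, UBR4, HERC1, HERC2, BIRC6, MYCBP2, RNF213 and TRIP12. A cluster was counted as a member when its deposited label named an exon or intron of one of these genes, and 41 of 40843 clusters met this rule, with 14, 17 and 10 in replicates 1, 2 and 3. The genes were taken by name. The data come from 3 biological replicates of 1 condition, HEK293T cells (the Lenti-X HEK293XT line, derived from human embryonic kidney and labelled as wild type) that expressed RBFOX2 fused to APOBEC1 under doxycycline for 72 h. As treatment the labels name transient transfection, although their growth protocol speaks of stable lines. No library of cells lacking the fusion was analysed here, so no background level of editing can be set beside the values.

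In this assay, called STAMP, an RNA-binding protein is fused to APOBEC1, a deaminase that turns C into U close to where the protein sits on RNA. RBFOX2 is a regulator of splicing. FLARE tiles genes that hold edits into windows, keeps windows with more edits than a Poisson background, and merges them into clusters. Its edit fraction divides the edited bases by every C base that reads of the cluster covered.

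Ubiquitin is passed from an activating enzyme (E1) to a conjugating enzyme (E2) and, with the help of a ligase (E3), to a target protein. HECT ligases take the ubiquitin onto a cysteine of their own before they hand it on, and HUWE1, HERC1, HERC2 and TRIP12 are of this type. UBR4 recognises destabilising N-terminal residues, MYCBP2 and RNF213 carry RING-type ligase modules, and BIRC6 combines E2 and E3 activity and inhibits apoptosis. All of these proteins are very long, and so are their coding sequences.

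Each of the 8 genes held a cluster in at least 1 replicate, but only TRIP12, HUWE1 and UBR4 held one in all 3. Of the 9904 gene names with at least 1 cluster in the series, 3754 (37.9%) had a cluster in each replicate. The members had 13.7 ± 3.51 clusters per replicate (SD, n = 3), which is 0.0979%, 0.112% and 0.0880% of all clusters of replicates 1, 2 and 3. The reads inside all clusters numbered 1637592, 1731304 and 1104249, and the reads inside member clusters 569, 646 and 524, so the members rest on few reads. The clusters lie on hg19 (the build in the submitters' processing notes), and positions are given from 1.

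TRIP12, a HECT ligase that acts in the DNA damage response, had 5 clusters in each replicate. Of the 9904 gene names with a cluster, 381 had at least as many clusters in total. HUWE1, a HECT ligase whose targets include p53 and MCL1, had 2, 5 and 3 clusters in replicates 1, 2 and 3. UBR4 had 1, 1 and 2 clusters. MYCBP2, which shapes axons and synapses, had 3 clusters in replicate 1, 1 in replicate 2 and 0 in replicate 3. BIRC6 had 1, 2 and 0 clusters. HERC1 had 2 clusters in replicate 1 alone, HERC2, which is also part of the DNA damage response, had 2 in replicate 2 alone, and RNF213, a susceptibility gene of moyamoya disease, had 1 in replicate 2 alone. The 4 HECT members together held 29 of the 41 clusters, of which 15 were in TRIP12 and 10 in HUWE1. Replicate 3, which had the fewest clusters of all genes (11367 against 14295 and 15181), lacked clusters in 5 of the 8 genes.

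**Figure D1:**
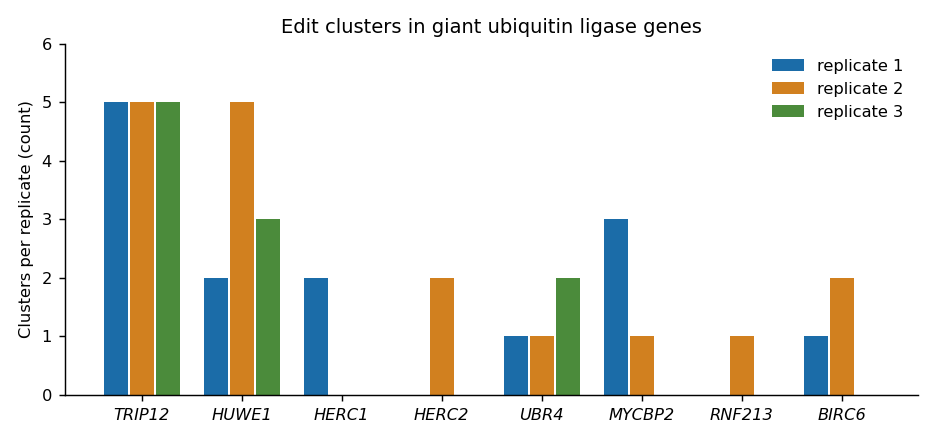
Number of clusters (vertical axis) in each of the 8 genes, with 1 bar for each of the 3 replicates and no bar where there was none. TRIP12 had 5 clusters in each replicate, whereas HERC1, HERC2 and RNF213 had clusters in 1 replicate only.

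UBR4 held the only member locus that was found in all 3 replicates. It lies on the minus strand of chromosome 1 from 19401275 to 19401319, with the same 45 bases in each replicate and 16 C bases. The label places it in exonic region 0 of UBR4 and in exonic region 0 of RP5-1126H10.2, so reads of these genes cannot be told apart there. Regions were numbered upwards along the chromosome, since 99.8% of 4376 steps between neighbouring regions of a gene on the plus strand and 99.8% of 4224 on the minus strand went up. Region 0 of a minus-strand gene therefore lies at its 3' end.

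At this locus 39 of 78 reads carried an edit in replicate 1, 34 of 59 in replicate 2 and 23 of 40 in replicate 3. These shares are 50% (Wilson 95% interval 39.2% to 60.8%), 57.6% (44.9% to 69.4%) and 57.5% (42.2% to 71.5%), which differ by less than their counting intervals. The mean over replicates was 55.0% ± 4.37 (SD, n = 3). The other member clusters were all lower. In the remaining 38 clusters the share of edited reads ran from 1.25% to 33.3%, with a median of 5.11%, and none had more than 4 edited reads.

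The edit fraction of the UBR4 locus was 4.04%, 4.52% and 4.83% in replicates 1, 2 and 3, with a mean of 4.46% ± 0.397 (SD, n = 3). Multiplied by its 16 C bases, this equals 0.647, 0.722 and 0.773 fully converted C bases. Edited reads carried 0.974, 1.00 and 1.00 edited bases each. In replicate 1 the edited bases (38) were fewer than the edited reads (39), so the counts were not made in the same way there. How many positions were edited cannot be read from these counts. The paper names genetic variation as a source of false positives in such data. Whether a sequence variant of the cells contributes at this locus was not tested, as no library lacking the fusion was analysed here.

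The locus ranked high in the series as well. At a mean depth of 30 reads or more, 12 of 6343, 12 of 6519 and 10 of 4351 clusters in replicates 1, 2 and 3 had a share of edited reads at least as high, counting the locus itself. The median share in these clusters was 3.17%, 3.08% and 3.18%. By edit fraction, 193, 163 and 69 of these clusters were at least as high. Over all clusters, 36 (0.0881% of 40843) had at least 50% of reads edited at such a depth, and 3 of them were this locus, limits that were set after its values were seen. The locus held 96 of the 168 edited reads of all members (57.1%) and 95 of their 244 edited bases (38.9%).

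**Figure D2:**
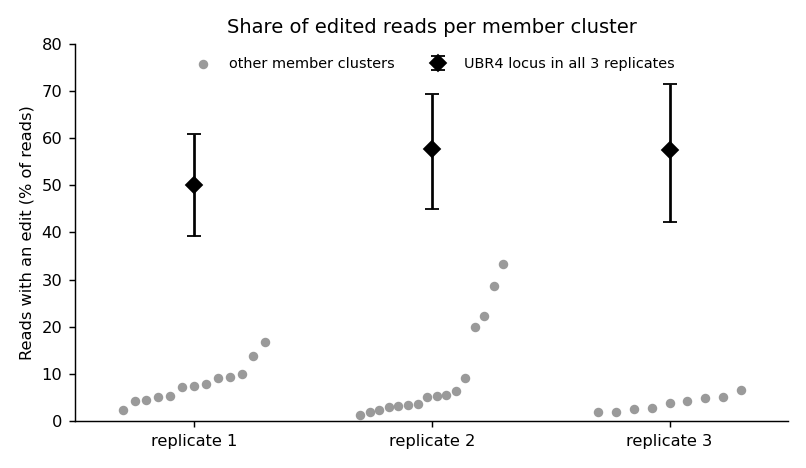
Share of reads with an edit (vertical axis, percent) in each member cluster by replicate. Black diamonds are the UBR4 locus with Wilson 95% intervals, and grey points, spread sideways in order of their value, are the remaining member clusters. The diamonds lie at 50%, 57.6% and 57.5%, above each grey point.

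A second UBR4 cluster, found in replicate 3 alone, lies in the same region from 19401125 to 19401169. There, 3 of 45 reads were edited (6.67%), and the edit fraction was 1.20%.

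TRIP12 had its clusters spread along the transcript, in 9 exonic regions numbered from 0 to 60 on chromosome 2. They formed 12 loci, where a locus joins clusters that share a base, and 3 of these loci were found in a pair of replicates. The first lies in region 8 from 230638878 to 230638922, where 2 of 86 reads were edited in replicate 1 and 2 of 87 in replicate 2, with edit fractions of 0.705% and 0.890%. The second lies in region 38 from 230663652 to 230663696, with 3 of 38 edited reads in replicate 1 (0.926%) and 1 of 21 in replicate 3 (1.44%). The third lies in region 0 from 230632155 to 230632244, with 2 of 110 edited reads in replicate 2 (1.54%) and 1 of 52 in replicate 3 (1.29%).

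The loci in regions 38 and 0 rest on 1 edited read in replicate 3, and each of the 3 loci has at most 3 edited reads in a replicate. Of the 15 TRIP12 clusters, 9 contained only 1 edited read. The regions 22, 26, 28, 56, 58 and 60 each held a cluster in 1 replicate. Pooled over its clusters, TRIP12 had an edit fraction of 1.25%, 1.40% and 1.79% in replicates 1, 2 and 3 (mean 1.48% ± 0.276, SD, n = 3).

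HUWE1, on chromosome X, had 10 clusters in 6 exonic regions, of which 5 lay in region 0 at the 3' end. A locus from 53559898 to 53559942 in this region was the only one shared by replicates, with 2 of 63 edited reads in replicate 2 and 3 of 70 in replicate 3. Its edit fractions were 1.33% and 1.18%. The deepest member cluster also lies here, from 53560048 to 53560092, with a mean depth of 86.3 reads and an edit fraction of 0.434% in replicate 3, the lowest of all members. Towards the 5' end, the clusters in regions 88, 126 and 142 had depths from 9.02 to 11.4 reads and were each found in 1 replicate.

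The pooled edit fraction of HUWE1 was 0.655%, 1.76% and 0.555% in replicates 1, 2 and 3. Replicate 2 stood above the others, and all 3 of its clusters in regions 12, 126 and 142 contained only 1 edited read. The only member cluster with a FLARE score under 0.95 was that of HUWE1 in region 10 of replicate 1, at 0.942. The score is a cumulative probability between 0 and 1 from a negative binomial distribution.

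**Figure D3:**
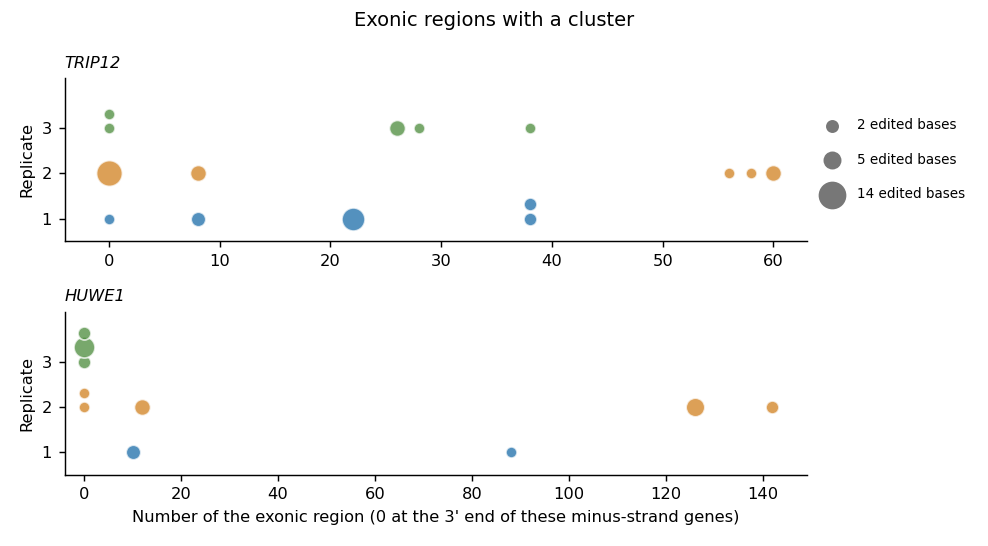
Clusters of TRIP12 (top) and HUWE1 (bottom) by the number of the exonic region (horizontal axis) and by replicate (vertical axis, points of the same region stacked). The area of a point grows with the edited bases, 2 to 14 in TRIP12. TRIP12 regions 0, 8 and 38 and HUWE1 region 0 held clusters in more than 1 replicate.

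HERC1 and HERC2 had few clusters. HERC1, a chromosome 15 gene, had a cluster in region 0 from 63901283 to 63901327 with 4 of 29 edited reads (edit fraction 1.00%) and one in region 34 from 63930611 to 63930670 with 1 of 11 (3.20%), both in replicate 1. HERC2, on the same chromosome, had a cluster in region 86 from 28443793 to 28443867 in replicate 2, with 2 of 9 edited reads and 8 edited bases. Its edit fraction of 10.8% was the highest of all members, at a mean depth of 5.88 reads. The HERC2 cluster in region 100, from 28458904 to 28458933, had 2 of 22 edited reads and an edit fraction of 1.45%. HERC2 has near-identical partial copies, and a pseudogene of it, HERC2P9, held 2 clusters in replicate 3 at depths of 7.0 and 9.74 reads. How reads were divided between the copies is not given in the sources used here, so the HERC2 values are uncertain.

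MYCBP2, on chromosome 13, had 3 of its 4 clusters in region 0, and those of replicates 1 and 2 lay at least 180 bases apart. The first, from 77619153 to 77619212, had 2 of 28 edited reads and an edit fraction of 1.93% in replicate 1. The second, from 77619273 to 77619317, had 2 of 38 edited reads (1.84%) in replicate 1, and the third, from 77619498 to 77619527, had 2 of 57 (0.920%) in replicate 2. The fourth, in region 24 from 77641927 to 77641956, had 2 of 27 (1.44%) in replicate 1. BIRC6, on the plus strand of chromosome 2, had clusters in region 150 in replicate 1 (from 32842943 to 32842987, 2 of 46 edited reads) and replicate 2 (from 32843063 to 32843092, 1 of 20), 75 bases apart. Neither gene had a locus shared by replicates. The single RNF213 cluster, in region 99 on chromosome 17 from 78346896 to 78346940, had 2 of 7 edited reads and an edit fraction of 1.83% in replicate 2.

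The pooled edit fraction could be ordered only for the members with clusters in each replicate. It was highest in UBR4 (4.04%, 4.52% and 3.58% in replicates 1, 2 and 3, both of its loci included), followed by TRIP12 and HUWE1. In replicates 1 and 2 the UBR4 value is that of a single locus. The second UBR4 locus, in replicate 3, had 1.20%, below the 1.79% of TRIP12 there. All UBR4 clusters also carry the label of RP5-1126H10.2, so the order holds for these loci rather than for the gene. UBR4 exceeded TRIP12 in each replicate, by 2.57 percentage points ± 0.687 (SD, n = 3), and HUWE1 by 3.06 ± 0.318. Both differences are larger than the spread between replicates. TRIP12 exceeded HUWE1 in replicates 1 and 3 but not in replicate 2 (mean difference 0.489 ± 0.800), so these neighbours did not differ beyond their spread. A two-sided exact permutation test over 3 replicates cannot give a p below 0.25, which was the p of both UBR4 differences (0.375 after Benjamini-Hochberg adjustment over 3 pairs).

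A locus was shared by all 3 replicates in 1 of 35 cases, by a pair in 4 and by none in 30. The corresponding shares of all 33244 loci were 4.77%, 11.9% and 83.4%. Counted by cluster, 1 of 14, 1 of 17 and 1 of 10 member clusters of replicates 1, 2 and 3 were found in all 3, or 7.68% ± 2.11 (SD, n = 3), each time the UBR4 locus. The SD of this share therefore reflects only the changing number of clusters. Of all clusters, 10.6%, 9.86% and 13.1% were found in all 3. At least 2 replicates shared 11 of the 41 member clusters (26.8%), against 32.1% of all clusters. These member shares lie near the background and set the members apart in neither direction.

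At the level of whole exonic regions, more clusters recurred. Of 25 member regions with a cluster, 7 had one in at least 2 replicates (28.0%), compared with 37.4% of 18508 regions of all genes. Region 0 of UBR4 and region 0 of TRIP12 had clusters in all 3 replicates. Regions 8 and 38 of TRIP12, region 0 of HUWE1, region 0 of MYCBP2 and region 150 of BIRC6 had them in a pair of replicates.

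All 41 member clusters were exonic. Over all clusters, 2.1% lay in introns, and 0 of 41 allows a share of up to 7.32% (3 counts of 41), so a difference was not detectable at this number. Of 37 member clusters on the minus strand, 17 lay in exonic region 0 (45.9%), with 5 of 13, 5 of 14 and 7 of 10 in replicates 1, 2 and 3, so the share was highest in replicate 3 (70.0%). The same was true of 59.5% of 20288 minus-strand clusters of all genes, which include genes with few exons.

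Several clusters outside UBR4 owed their edits to very few reads. Of the 41, 14 contained 1 edited read and 30 (73.2%) at most 2, against 64.6% of all clusters with at most 2. At most 2 edited reads were found in 9 of 14, 16 of 17 and 5 of 10 clusters of replicates 1, 2 and 3, so replicate 2 raised this share. By replicate, 2 of 14, 7 of 17 and 5 of 10 contained 1 edited read, whereas the shares over all clusters were 28.0%, 31.1% and 33.0%. The member share thus lay below the background in replicate 1 and above it in replicates 2 and 3, with a mean of 35.2% ± 18.6 (SD, n = 3).

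Many of the member clusters with several edited bases per edited read were in TRIP12. At least 2 edited bases per edited read were found in 7 of 14, 11 of 17 and 6 of 10 member clusters of replicates 1, 2 and 3, and in 44.4%, 47.1% and 48.1% of all clusters. TRIP12 provided 13 of these 24. No member cluster had fewer than 2 edited bases, so every cluster with 1 edited read meets this limit by itself. Of the 13 TRIP12 clusters, 9 had only 1 edited read. Its cluster in region 0 of replicate 2 had 14 edited bases on 2 of 110 reads, or 7.0 per edited read. The TRIP12 cluster in region 22 of replicate 1 had 11 edited bases on 2 reads, and those in region 26 of replicate 3 and region 60 of replicate 2 had 5 on 1 read.

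In HUWE1, region 126 of replicate 2, from 53642706 to 53642780, had 7 edited bases and 1 edited read of 19. Region 12 had 5 edited bases and 1 edited read of 80. Edited bases were fewer than edited reads in 28, 12 and 11 of all clusters in replicates 1, 2 and 3. Edited bases per edited read is thus a ratio of 2 counts that were not always made alike. At least 5 edited bases per edited read occurred in 6 of 41 member clusters (14.6%, Wilson 95% interval 6.88% to 28.4%) and in 6.21% of all clusters, a share just below this interval. Replicate 2 held 4 of these 6, and replicates 1 and 3 held 1 each. Clusters of the same gene and replicate share a library and are not independent, so the interval covers counting error only. The limit of 5 was not planned in advance, so the contrast with all clusters carries no weight as a test. The TRIP12 clusters in regions 26 and 60 and the HUWE1 cluster in region 12 lie exactly at this limit. The UBR4 locus had about 1 edited base per edited read, as did at least 1 cluster of each other member gene.

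**Figure D4:**
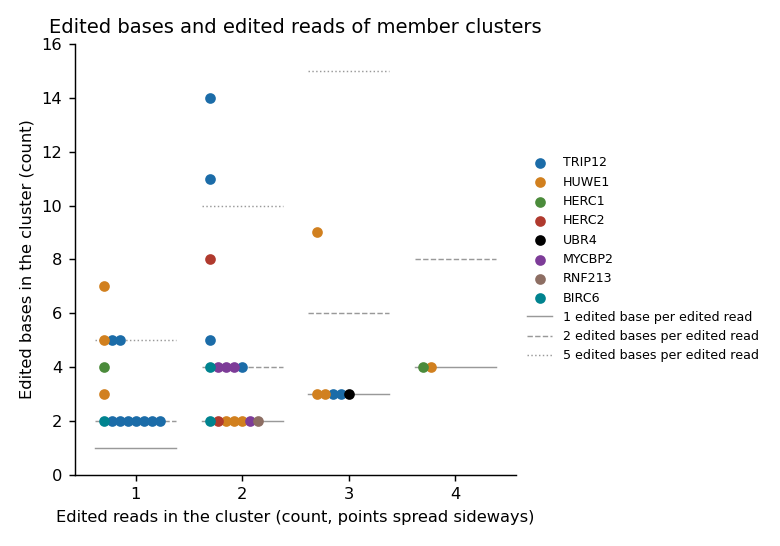
Edited bases (vertical axis) against edited reads (horizontal axis, points spread sideways) in the 38 member clusters outside the UBR4 locus of all 3 replicates, with grey lines at 1, 2 and 5 edited bases per edited read. TRIP12 lies highest (14 and 11 edited bases on 2 reads), followed by HUWE1 (9 on 3 reads), HERC2 (8 on 2 reads) and HUWE1 (7 on 1 read), and no cluster has more than 4 edited reads.

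Member clusters had a median edit fraction of 1.56%, 1.79% and 1.36% in replicates 1, 2 and 3, and all other clusters 1.64%, 1.65% and 1.80%. The difference of -0.0771, 0.139 and -0.437 percentage points changed sign between replicates (mean -0.125 ± 0.291, SD, n = 3, two-sided exact permutation p = 0.75). Over all clusters the median edit fraction was lower in deeper classes, at 4.88% under a depth of 10 and 0.774% from a depth of 50 in replicate 1. Against the median of their own depth class, 3 of 14, 9 of 17 and 5 of 10 member clusters lay higher. The UBR4 locus was above the 95th percentile of its class in each replicate (2.47%, 2.96% and 3.18%).

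Summed over clusters, the members had an edit fraction of 1.75%, 2.13% and 1.30%, compared with 0.939%, 0.934% and 0.997% over all clusters of the series. This contrast depends on the UBR4 locus in part. Without it, the members had 1.23%, 1.68% and 0.842%, which is above the series in replicates 1 and 2 and below it in replicate 3. The sums over all clusters also include much deeper clusters, whereas no member cluster exceeded a depth of 86.3 reads.

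**Figure D5:**
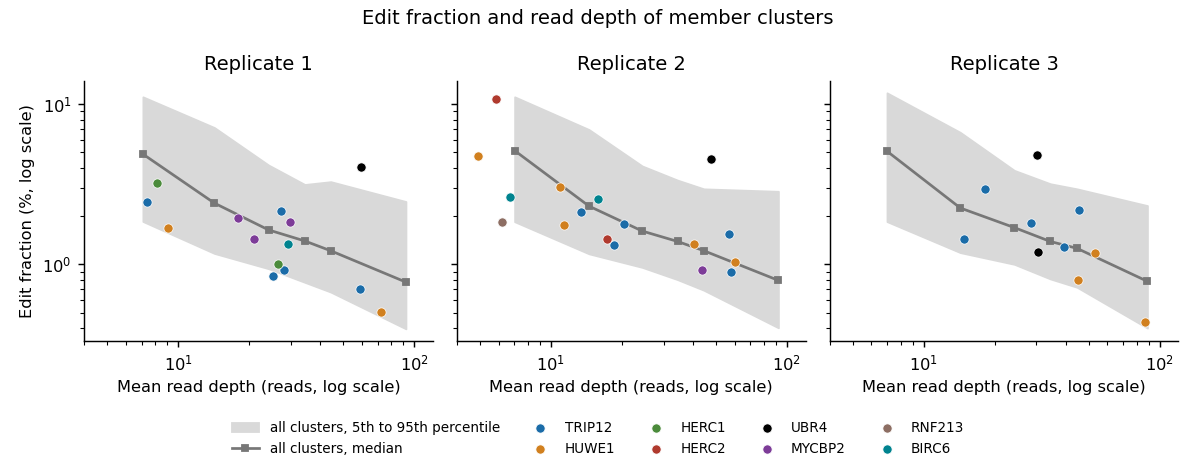
Edit fraction (vertical axis, percent, log scale) against mean read depth (horizontal axis, log scale) of each member cluster, with 1 panel per replicate. The grey line and band give the median and the 5th to 95th percentile of all clusters in 6 depth classes, drawn at the median depth of each class. The UBR4 locus (black, 4.04%, 4.52% and 4.83%) lies above the band in each panel.

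Other lists of genes were set beside the members. The 8 members had 1.71 ± 0.439 clusters per gene and replicate (SD, n = 3). PI3K-like giant kinases had 1.78 ± 0.536, led by PRKDC with 5, 2 and 3 clusters, SMG1 with 3, 4 and 1, and ATM with 2 in each replicate. Giant cytoskeletal and motor genes had 1.33 ± 0.252, led by SPTBN1 (5, 1 and 3), MACF1 (2, 4 and 1) and DYNC1H1 (3, 1 and 2). These counts were divided by all genes of a list, also those without a cluster. A cluster was held by all 8 members, 5 of 6 kinases and 8 of 10 cytoskeletal genes. The difference between members and kinases changed sign between replicates (mean -0.0694 ± 0.168 clusters per gene). The members exceeded the cytoskeletal list in each replicate, by 0.375 ± 0.198. TRIP12 alone held 5 of the 14, 17 and 10 member clusters of replicates 1, 2 and 3.

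Within the ubiquitin system, 17 of 23 other HECT ligases, all 5 other UBR box proteins and 31 of 32 E1 and E2 enzymes had a cluster. The other HECT ligases had 1.23 ± 0.395 clusters per gene, led by ITCH (4, 6 and 5) and UBE3C (3, 6 and 4). The other UBR box proteins had 3.00 ± 1.22, led by UBR2 (4, 5 and 2), UBR1 (5, 3 and 2) and UBR7 (4, 3 and 3). The E1 and E2 enzymes had 2.68 ± 0.452, led by UBE2H (8, 11 and 6), UBE2Q1 (8, 7 and 6) and UBE2N (6, 7 and 5). The members exceeded the other HECT ligases in each replicate, by 0.476 ± 0.0979, whereas members minus UBR box proteins gave -1.29 ± 0.820 and members minus E1 and E2 enzymes -0.969 ± 0.165. An exact permutation p of 0.25 is the smallest that 3 replicates allow, and each of these 4 differences with a constant sign reached it (0.312 after Benjamini-Hochberg adjustment over 5 lists). The excess of the members over the cytoskeletal list and over the other HECT ligases includes TRIP12, with 5 clusters in each replicate. In replicate 3, TRIP12 held 5 of the 10 member clusters. Whether either excess holds without TRIP12 was not tested, so neither is shown for the remaining members. Genes without a cluster also lower the counts per gene of both lists, whereas each member had a cluster. The level of expression and the length of the genes, which bear on how many clusters can be found, were not analysed here.

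The members' median edit fraction minus that of the giant cytoskeletal genes was -2.01, -1.33 and -1.45 percentage points in replicates 1, 2 and 3 (mean -1.60 ± 0.365, SD, n = 3). Minus that of the E1 and E2 enzymes it was 0.442, 0.526 and 0.247 (mean 0.405 ± 0.143). The mean difference was -0.731 ± 0.688 from the kinases, -0.938 ± 0.912 from the other HECT ligases and -2.76 ± 2.41 from the other UBR box proteins. All 5 differences from a list had a constant sign, with the smallest exact permutation p that 3 replicates allow, 0.25 (0.3 after Benjamini-Hochberg adjustment over 6 comparisons, with that against all other clusters). The median depth was 26.4 ± 8.89 reads in member clusters, 26.2 ± 14.01 in the kinases, 16.4 ± 4.78 in the cytoskeletal list, 12.4 ± 2.47 in the other HECT ligases, 10.9 ± 3.495 in the other UBR box proteins and 42.4 ± 4.69 in E1 and E2 enzymes. The list with the lower edit fraction was thus deeper than the members, whereas 3 lists with a higher one were shallower. The kinases had about the same depth on average only. By replicate they had 42.3, 18.7 and 17.5 reads, against 27.0, 17.2 and 35.0 in the members. The part of depth in these differences was not tested. Of the clusters of each replicate, 20.2% ± 7.27 in the kinases, 15.4% ± 2.84 in the cytoskeletal genes and 12.6% ± 1.62 in E1 and E2 enzymes were found in all 3 replicates. In the kinases and in the cytoskeletal genes these were 2 clusters of each replicate, so the SD of these shares reflects the changing number of clusters. None of 85 and 45 clusters in the other HECT ligases and the other UBR box proteins was found in all 3 replicates. The UBR4 locus is thus the only such locus among these lists of HECT and UBR ligases and the 8 members.

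Among 3754 genes with a cluster in each replicate, the gene most like TRIP12 in number of clusters, pooled edit fraction and read depth was VPS35, with 5.0 clusters per replicate, an edit fraction of 1.44% and a median depth of 27.2 reads. TRIP12 itself had 5.0 clusters, 1.48% and 25.4 reads. HUWE1 (3.33 clusters, 0.991% and 35.2 reads) was nearest to ATP6V1D (3.33 clusters, 0.989% and 41.6 reads). UBR4 was nearest to RP5-1126H10.2, which shares its clusters. The distances over the 3 scaled measures were 0.0791 for VPS35 and 0.160 for ATP6V1D.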

How the data were processed

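RNA sequencing reads of 3 replicates were processed by the authors with SAILOR, which removes common SNPs, and FLARE, which tested windows of 30 bases. By default, FLARE keeps windows with an adjusted p-value up to 0.1 and merges windows within 15 bases. The submitters' processing notes name STAR and hg19. Each replicate was processed on its own. Per cluster, the deposited counts (reads, edited reads, edited bases, C bases and C bases covered) are unscaled whole numbers. The deposited edit fraction and fraction of edited reads were recomputed from them. Mean read depth is a deposited coverage signal, not scaled to library size, and the score is that given by the authors. Windows that failed were not analysed here, so a gene without a cluster is not shown to lack edits, and library totals were not analysed here.

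Calculations used SciPy 1.17.1 and pandas 2.3.3 with NumPy 2.4.6 under Python 3.11.15, and figures matplotlib 3.10.9. Clusters were matched between replicates by at least 1 shared base on the same strand. Differences within replicates were tested with two-sided exact permutation tests over replicates (signs flipped). Wilson intervals reflect counting error alone, because PCR copies cannot be told apart without molecular identifiers. Read intervals were preferred because bases of 1 read are not independent. All 8 gene names matched a RefSeq symbol. Each member was named, with the locus found in the most replicates and then with the most edited reads, its longest cluster, intronic clusters if any, the 3 genes with the most clusters of each other list, and the nearest gene. One gene that this rule names is not reported here. The members and lists were chosen with earlier results of these data known. The overlap search was checked on 2000 simulated clusters and returned the brute-force answer in 100% of them. The sequence under the clusters was not analysed here. The alternatives were scores from 0.95 or 0.99, depths from 50, at least 2 edited reads, exonic clusters, an overlap of 50%, means, medians, the log2 scale, depth classes and leaving out each replicate. Leaving out the UBR4 locus and requiring at least 2 replicates were chosen after the data were seen.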

Additional observations from a re-analysis of the deposited data

How the results depend on the processing

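With scores of at least 0.99, the members had 7.67 clusters per replicate in place of 13.7, a pooled edit fraction of 2.81% in place of 1.73%, and 18.1% of clusters found in all 3 replicates in place of 7.68%. At a depth of at least 50 these values were 2.67 clusters, 1.25% and 0%, since the UBR4 locus passed this depth in replicate 1 alone, and the share of clusters with 1 edited read was 11.1% in place of 35.2%. With at least 2 edited reads there were 9 clusters, and 12.8% were found in all 3 replicates. The pooled edit fraction was 1.25% without the UBR4 locus. The share found in at least 2 replicates was 28.3%. When 1 replicate was left out and both others were required, it was 13.0% to 23.8%. The fraction of edited reads of the UBR4 locus, 55.0%, is another quantity than its edit fraction of 4.46%. The difference in median edit fraction between members and other clusters reversed from -0.125 to 0.113 percentage points at a score of at least 0.99, to 0.0647 at a depth of at least 50 and, without replicate 3, to 0.0310 (range -0.257 to 0.0310 over the replicates left out). With means it was -0.574 and within depth classes -0.364, each with p = 0.5 in the exact permutation test. Why it reversed was not tested beyond the fewer clusters that these settings keep. Of 31 values of the same quantity from settings that kept all replicates, 18 stayed on the same side or within the spread between replicates or 1.5 times the count, 11 moved and 2 reversed. Keeping exonic clusters only could change no value, since all 41 member clusters were exonic. For the median difference any value of the same sign counted as staying, also -0.00658 with at least 2 edited reads. Few reads per cluster limit the precision, and 14 of 41 clusters rest on 1 edited read. No paired analysis was possible because the labels give only 1 group, so no samples of different groups could be paired, and the differences given are between clusters of the same replicate.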
